A study of Sus scrofa with 11 samples.

Results

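Of the 43753 probes of a porcine expression array that carried no outlier flag, 10834 (24.76%) were detected in some single blastocysts and not in others. A probe was called on in a blastocyst when its spot was well above background on that blastocyst's array and off otherwise, and the 10834 probes are those on in 3 to 10 of the 11 arrays. A further 22315 probes (51.0%) were on in all 11, 6250 (14.28%) in none and 4354 (9.951%) in 1 or 2. On or off detection therefore chose these probes, and the number of arrays on which each was on is a description and no finding.

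The study compared blastocysts derived from pig oocytes sorted by Brilliant Cresyl Blue (BCB). Ovaries came from an abattoir, cumulus-oocyte complexes were stained for 60 min and split into stained (BCB+) and unstained (BCB-) pools, and both pools were matured in vitro for 44 h, injected with a sperm (intracytoplasmic sperm injection, ICSI) and cultured for 7 days. The 3 groups were 4 blastocysts of ICSI BCB+, 3 of ICSI BCB- and 4 of mICSI BCB-. In the last of these a mitochondrial isolate prepared from BCB+ metaphase II oocytes was injected into the BCB- oocyte together with the sperm. All 3 groups thus shared staining, in vitro maturation, injection and culture, and no group was injected with a carrier alone according to the labels. The title, source and characteristics of the mICSI samples give BCB- oocytes, whereas their free-text description names BCB+, and the grouping follows the former. Each array held the amplified RNA of 1 blastocyst, and the labels do not say which blastocysts shared an ovary pair, so that p-values measure the spread between these blastocysts.

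BCB is a dye that glucose-6-phosphate dehydrogenase reduces to a colourless form. The enzyme is active while the oocyte grows and declines as growth ends, so that a fully grown oocyte keeps the blue stain. A blastocyst is the embryo at the stage when it has formed an outer trophectoderm, an inner cell mass and a fluid-filled cavity, and it holds little RNA. A single blastocyst has to be amplified before hybridisation, and a rare transcript can be lost or carried along in that step. On an Agilent array each probe is one oligonucleotide spot, and the well-above-background flag asks whether its signal exceeds the local background by a margin that the scanner software sets. The files used here name probes by the maker's identifiers and pair none of them with a gene or a sequence, so that probes are named by identifier, and the blastocyst label could not be checked against marker genes. Fewer cells per blastocyst and less RNA per cell cannot be told apart in these data.

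The arrays differed in brightness and shared slides across groups. The 75th percentile of the processed signal, taken here as an array's brightness, ran from 243 to 1138 intensity units (median 500). The dimmest arrays were mICSI BCB- replicate 4 (243) and replicate 2 (322), and the brightest were ICSI BCB- replicate 1 (1138) and replicate 2 (879). The arrays lay on 3 slides. Replicates 1 and 2 of ICSI BCB+ and of mICSI BCB- lay together on slide 1. Replicates 3 and 4 of ICSI BCB+ shared slide 2 with replicates 1 and 2 of ICSI BCB-, while replicate 3 of ICSI BCB- and replicates 3 and 4 of mICSI BCB- were on slide 3. Any 2 groups thus met on a single slide.

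The partly detected probes were unevenly spread over the blastocysts. In ICSI BCB+ blastocysts 7401, 7866, 7389 and 6923 of the 10834 were on in replicates 1 to 4 (mean 68.3% ± 3.55, SD, n = 4). In ICSI BCB- blastocysts 8462, 7313 and 8235 were on (73.9% ± 5.62, SD, n = 3). In mICSI BCB- blastocysts the numbers were 6861, 4924, 7621 and 3413 (52.7% ± 17.6, SD, n = 4). ICSI BCB- replicate 1 had the most and mICSI BCB- replicate 4 the fewest, and the ranges of the 3 groups overlapped, since mICSI BCB- replicate 3 stood above 3 of the 4 ICSI BCB+ blastocysts.

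The numbers per array were also taken with every array held to the same depth of detection. When only the 25996 brightest probes of each array counted as on, which is the number on in mICSI BCB- replicate 4, 10124 probes were on in 3 to 10 arrays. This setting fixes the number of on probes per array, so that closeness in these numbers follows from it in part. Between 5739 and 6300 of the 10124 were then on per array, with means of 6206 ± 18.8 (SD, n = 4) in ICSI BCB+, 6159 ± 89.4 (SD, n = 3) in ICSI BCB- and 6136 ± 266 (SD, n = 4) in mICSI BCB-. The lowest number again belonged to mICSI BCB- replicate 4, and the other 10 arrays lay between 6075 and 6300. Brightness and the other properties of an embryo's RNA cannot be told apart on 1 array per blastocyst.

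The number of arrays on which a probe was on had its mass at the upper end of the range. There were 1288 probes on in 3 arrays, 1052 in 4, 1053 in 5, 958 in 6, 1129 in 7, 1275 in 8, 1570 in 9 and 2509 in 10. Just outside the limits, 1668 probes were on in 2 arrays, and 22315 in all 11. The median signal where detected was 46.9 for probes on in 2 arrays and 42.3 for those on in 3, so that nothing marked the lower limit. At the upper limit it stepped from 80.7 for probes on in 10 arrays to 410 for those on in 11.

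Where they were detected, most of these probes were dim. Over the 10834 probes the median signal on the arrays where a probe was on had a median of 54.6 intensity units, with quartiles at 34.2 and 121, against a median of 13.3 on the arrays where it was off. The lowest signal flagged as well above background on an array lay between 15.5 and 29.3, and the highest signal without the flag between 19.4 and 37.9, so that the flag is no single cut in signal. For 1344 probes (12.4%) every signal called on lay within 2-fold of the lowest on signal of its array. At the other end 4750 (43.8%) reached 10-fold of that level on at least 1 array, and 370 (3.42%) reached 100-fold. No spot of these probes was saturated.

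A small set was bright wherever it was on. For 179 probes (1.65%) every on signal was at least 10-fold above the lowest on signal of its array, and 97 of these were on in 10 arrays, against 15 on in 3 arrays. Of the 179, mICSI BCB- replicate 4 lacked 112 and mICSI BCB- replicate 2 lacked 65. Each of the other 9 blastocysts lacked between 21 and 47. Over all 10834 partly detected probes, mICSI BCB- replicate 4 lacked 7421 and mICSI BCB- replicate 2 lacked 5910. Both are larger shares than among the 179. The 179 were more often on in 10 arrays than all partly detected probes (23.16%), which lowers the share off on an array. These shares therefore cannot say whether an array lacked bright probes in particular. The bright set was chosen by its on signal, which bears on where a probe was off. A probe faintly on in an array is dropped from the set, while one off there can stay. The difference between arrays is given with no test.

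Probes absent from a single blastocyst made up the largest class, and one embryo held most of them. Of the 2509 probes on in 10 arrays, 1265 (50.42%) were off in mICSI BCB- replicate 4 and 424 (16.9%) in mICSI BCB- replicate 2. Losses in the other arrays were 95, 70, 85 and 186 in ICSI BCB+ replicates 1 to 4, 35, 97 and 26 in ICSI BCB- replicates 1 to 3, and 140 and 86 in mICSI BCB- replicates 1 and 3. These 2 mICSI BCB- arrays were also the dimmest, and the part of brightness in these losses was not tested separately from the embryo. With mICSI BCB- replicate 4 left out, 9428 probes were on in 3 to 9 of the 10 remaining arrays, against 10238 to 10405 with any other array left out.

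The probes lost from one embryo were not of the same strength in every embryo. Those off in mICSI BCB- replicate 4 alone had a median signal of 81.0 on the other 10 arrays (quartiles 43.6 and 213) and of 13.8 on that array. Those off in ICSI BCB+ replicate 4 alone were brighter elsewhere, with a median of 195 (quartiles 90.2 and 354) and 14.3 on that array. Those off in mICSI BCB- replicate 1 alone were the dimmest elsewhere, at 39.6 (quartiles 33.3 and 72.4), against 18.6 on that array. The share whose median on signal was at least 10-fold above the lowest on signal was 25.5% for mICSI BCB- replicate 4, 48.4% for ICSI BCB+ replicate 4 and 8.57% for mICSI BCB- replicate 1.

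The 2 probes off on a single array with the widest gap showed how complete such a loss could be. EMPV1_21450 had signals of 43624, 46742, 245 and 13943 in ICSI BCB+ replicates 1 to 4, of 124721, 140646 and 37886 in ICSI BCB- replicates 1 to 3, and of 113512, 4.48, 3902 and 117966 in mICSI BCB- replicates 1 to 4. It was off in mICSI BCB- replicate 2 alone, where its signal was at the level of an empty spot, and low in ICSI BCB+ replicate 3, and the mean log2 normalised signal of the on arrays was at least 935-fold above the bound of the off array. EMPV1_40216 had 14882, 25896, 19152 and 6.79 in ICSI BCB+, 39987, 23299 and 2924 in ICSI BCB-, and 19398, 13875, 33030 and 5451 in mICSI BCB-. It was off in ICSI BCB+ replicate 4 alone, and that array was neither the brightest nor the dimmest. The mean of the on arrays was at least 790-fold above the detection level of that array.

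The reverse pattern, a strong signal in a few embryos of mixed groups, was seen as well. EMPV1_34975 had 12409, 8.59, 9.15 and 5.87 in ICSI BCB+, 9.84, 8731 and 90.2 in ICSI BCB-, and 4.16, 3.97, 4.02 and 3.77 in mICSI BCB-. It was on in 1 ICSI BCB+ and 2 ICSI BCB- blastocysts and off in every mICSI BCB- blastocyst. The mean log2 signal of the on arrays was at least 105-fold above the detection level of the off arrays. Of the on arrays, ICSI BCB- replicate 3 (90.2) was low. EMPV1_25665 had 1103, 9.90, 8.38 and 1080 in ICSI BCB+, 11.9, 747 and 9.78 in ICSI BCB-, and 4.32, 9.61, 6.45 and 5.55 in mICSI BCB-. It was on in 2 ICSI BCB+ blastocysts and 1 ICSI BCB- blastocyst, with a mean at least 44.5-fold above the detection level of the rest. By detection neither probe divided the groups exactly, although the signals of EMPV1_34975 in mICSI BCB-, all off, lay below those of the other 7 blastocysts. These 4 probes were named because their gaps were the widest among probes on in 10 and in 3 arrays.

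Taken by arrangement over the 11 blastocysts, the probes fell into 1519 of the 1980 possible patterns, and 390 patterns were held by 1 probe each. The 3 commonest patterns were off in mICSI BCB- replicate 4 alone (1265 probes), off in mICSI BCB- replicate 2 alone (424) and off in both (411), and together they held 2100 probes (19.4%). The next was off in ICSI BCB+ replicate 4 alone, with 186.

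Few probes divided the blastocysts exactly by treatment. A split of 1 whole group against the other 2 was seen for 66 of the 10834 probes, or 0.151% of the 43753 probes of the array, and a split of 1 whole slide against the other 2 for 72, or 0.165%. By group, 16 probes were on in all ICSI BCB+ blastocysts and no other and 5 were off there and on in all others. For ICSI BCB- the numbers were 18 and 1, and for mICSI BCB- they were 0 and 26. By slide they were 4 and 7 for slide 1, 10 and 3 for slide 2, and 8 and 40 for slide 3. Groups and slides have the same sizes (4, 4 and 3 arrays), and the exact splits by group were no more numerous than those by slide.

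Detection in a pair of blastocysts of the same group was nearly as often discordant as in a pair of different groups. The share of the 10834 probes in the same state averaged 62.3% over the 15 pairs within a group (45.8% to 70.7%) and 59.6% over the 40 pairs between groups (42.1% to 70.4%). Within ICSI BCB+ it averaged 66.3%, within ICSI BCB- 68.9% and within mICSI BCB- 54.9%. Pairs on the same slide averaged 61.1% and pairs on different slides 60.1%. At equal depth the shares were 59.9% within and 58.2% between groups, and the mean within mICSI BCB- was 58.2%. Pairs share arrays and are not independent, and these shares are given with no test.

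Detection was then tested against group, slide and brightness, probe by probe, with the number of on arrays held fixed. By group, 280 of the 10834 probes (2.58%) had p under 0.05 in a Fisher-Freeman-Halton exact test, which is 0.64% of all 43753 probes. That every probe of the array past that level was one of the 10834 was fixed in advance. A probe on in 1 or 2 arrays has the same exact p by group as one off in 1 or 2, at least 0.0545. The share of all 43753 probes thus counts many that could not pass. By slide 205 did so (1.89%, and 0.469% of all probes). None of either set remained below 0.05 after Benjamini-Hochberg adjustment over the 43753 probes, and the smallest adjusted p was 1.0 with an exact p of 0.00606, the lowest that these group sizes allow. The numbers for group and slide were of the same order. At that lowest p no single probe can pass an adjustment over 43753 probes on its own. Neither test could therefore single out a probe.

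On average the 280 probes were on in 60.8% of ICSI BCB+, 71.3% of ICSI BCB- and 15.8% of mICSI BCB- blastocysts, against 68.3%, 73.9% and 52.7% over all 10834 probes. For 165 of them mICSI BCB- alone had the lowest share of on blastocysts, for 53 ICSI BCB+ and for 28 ICSI BCB-, the first being 58.93% of the set. Over all 10834 probes the numbers were 5696 (52.58%), 2041 and 1506, so that the group most often lowest was the same and its share was near that of the 280. The same order held within slides. On slide 1 these probes were on in 61.8% of ICSI BCB+ and 16.3% of mICSI BCB- arrays, on slide 2 in 59.8% of ICSI BCB+ and 69.3% of ICSI BCB-, and on slide 3 in 75.4% of ICSI BCB- and 15.4% of mICSI BCB-. Because the 280 were picked on these arrays, the shares describe the set and do not test it. Equal depth left 237 probes with p under 0.05, and the count moved between 143 without ICSI BCB- replicate 2 and 455 without mICSI BCB- replicate 3. It was 144 without ICSI BCB- replicate 1, 156 without ICSI BCB- replicate 3, and between 331 and 426 without any of the other arrays.

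Array brightness had the most probes in common with detection. In an exact two-sided Mann-Whitney test of brightness between the on and the off arrays of each probe, 878 of the 10834 (8.1%) had p under 0.05, against 2.19% of all 43753 probes, and none passed after Benjamini-Hochberg adjustment (smallest adjusted p 1.0). The lowest exact p was 0.00433, at which no single probe can pass that adjustment on its own. In 838 of the 878 the on arrays were the brighter, and in 40 the dimmer. Over all 10834 probes the on array was the brighter in a median of 0.667 of the pairs of an on and an off array, the share was above 0.5 for 7960 probes (73.5%) and below it for 2218, and 1769 probes were on in exactly the brightest arrays up to their number. Without mICSI BCB- replicate 4 the 878 fell to 332 and without replicate 2 to 422, while any other omission left 776 to 902. These are the 2 dimmest arrays, so that the relation rested largely on them.

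Brightness measured in another way altered that number. With the number of probes on per array as the measure 1044 probes had p under 0.05, and with the signal of the spike-in RNA added before extraction 416. At equal depth it was 617. The 75th percentile cannot tell the RNA content of an embryo from its amplification, labelling and scan. On slide 1 the on counts of 7866, 6861, 7401 and 4924 went with brightness of 527, 500, 373 and 322, on slide 2 those of 8462, 7313, 7389 and 6923 with 1138, 879, 553 and 494, and on slide 3 those of 7621, 8235 and 3413 with 572, 471 and 243. On each slide the dimmest array had the fewest probes on, and otherwise the order differed in part. With 3 or 4 arrays no test was made within a slide.

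The tests of group and of brightness could not call the same probe. Of the 1980 arrangements of 3 to 10 on arrays, 50 pass the group test, 50 the slide test and 74 the brightness test, and no arrangement passes the group test together with either of the others. The absence of probes called by both is thus a property of the layout. Power differed with the number of on arrays too, as no arrangement of 9 or 10 on arrays can reach p under 0.05 by group (smallest 0.0545 and 0.273), and none of 10 by brightness (0.182). Brightness called 425 of the 1570 probes on in 9 arrays (27.1%).

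The position of a probe on the array had little bearing on membership. The 10834 probes made up 25.1%, 24.4%, 25.8% and 23.7% of the probes at the upper left, upper right, lower left and lower right of the array.

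Signal was compared between groups on the quantile-normalised log2 scale, with all 33149 probes on in at least 3 arrays fitted in limma and p-values adjusted over all of them. All 10834 partly detected probes were in that fit, since the filter is the lower limit of their rule. When ICSI BCB- was set against ICSI BCB+, 4 of the 10834 (0.0369%) passed a false discovery rate of 0.05, against 0.0181% of all probes fitted. Of these 3 were higher in ICSI BCB- and 1 lower, where 0.0121% and 0.00603% of all probes were. At the study's looser limit, an unadjusted p under 0.01 with a change over 2-fold, 217 (2.0%) did so, against 2.24% of all probes. Of the 217, 169 were higher and 48 lower, where 1.68% and 0.552% of all probes were. The share passing the looser limit was thus near that of the whole array, and 958 of the 10834 had an unadjusted p under 0.05.

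That balance of higher and lower calls moved with the scaling. The median log2 difference was -0.03 over the 10834 and -0.09 over all probes after quantile normalisation, and -0.16 and -0.19 after scaling to the 75th percentile, which gave 162 higher and 98 lower. After scaling to the spike-in RNA the median of all probes was 1.04, and 618 probes were higher and 4 lower. Differences below are given on the quantile-normalised scale, relative to a median near 0.

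Among the 4 calls EMPV1_40508 had the lowest adjusted p. It had signals of 3.52, 4.25, 4.91 and 4.59 in ICSI BCB+ replicates 1 to 4, of 1152, 1568 and 263 in ICSI BCB- replicates 1 to 3, and of 4.60, 4.49, 4.73 and 4.22 in mICSI BCB- replicates 1 to 4. Every ICSI BCB- blastocyst had it on and the other 8 off, and the groups did not overlap. On the log2 scale it stood at 9.10 ± 0.85 (SD, n = 3) in ICSI BCB-, 2.22 ± 0.03 (SD, n = 4) in ICSI BCB+ and 2.37 ± 0.16 (SD, n = 4) in mICSI BCB-. The difference of ICSI BCB- from ICSI BCB+ was 6.88 (SE 0.36, adjusted p = 9.5e-05, limma), at least 26.9-fold above the detection level. That of mICSI BCB- from ICSI BCB- was -6.73 (SE 0.36, adjusted p = 0.00012, limma), at least 20.2-fold. The 3 groups share 1 variance, so that the narrow spread of the 8 off values, which is that of undetected spots, enters both SEs and p-values. The sizes were 5.77 and -5.77 with a floor of 10. With normexp background correction they were 3.14 and -3.11 (adjusted p = 0.025 and 0.029, limma). Both calls held with any array left out (adjusted p up to 0.0020 and 0.0024) and with slide as a block (0.0027 and 0.0097), and they fell short within the single shared slide, at 7.29 (0.13) and -5.79 (1.0), and in the methods' unpaired test (0.066 and 0.15). The within-slide fits rest on at most 2 arrays a group.

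EMPV1_17627 was higher in both BCB- groups than in ICSI BCB+. Its signals were 22.8, 19.2, 39.0 and 9.69 in ICSI BCB+, 830, 1348 and 304 in ICSI BCB-, and 563, 243, 448 and 376 in mICSI BCB-. In ICSI BCB+ it was on in 2 of 4 blastocysts, and the 7 others, all on, lay above these 4. The log2 difference from ICSI BCB+ was 4.54 (SE 0.52, adjusted p = 0.048, limma) in ICSI BCB- and 4.73 (SE 0.48, adjusted p = 0.042) in mICSI BCB-, 2 comparisons that share the ICSI BCB+ arrays. With slide as a block the adjusted p was 0.20 and 0.24. With ICSI BCB- replicate 1 left out it reached 0.27 in the former, which kept its call in 1 of the 11 omissions, and with mICSI BCB- replicate 2 left out 0.16 in the latter, which kept it in 6.

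EMPV1_38559 followed the pattern of EMPV1_40508 at a lower level. It had 5.83, 5.48, 8.80 and 4.37 in ICSI BCB+, 186, 180 and 34.0 in ICSI BCB-, and 4.83, 4.72, 4.38 and 4.04 in mICSI BCB-. Only the 3 ICSI BCB- blastocysts had it on, without overlap, at a log2 difference of 3.65 (SE 0.40, adjusted p = 0.048, limma) from ICSI BCB+ and at least 3.61-fold. EMPV1_06422 was the member lower in ICSI BCB-, with 211, 343, 913 and 340 in ICSI BCB+, 28.9, 16.7 and 36.9 in ICSI BCB-, and 20.4, 23.5, 64.9 and 12.6 in mICSI BCB-. It was on in all ICSI BCB+ blastocysts and in 3 of the other 7, each of which lay below the 4, at a log2 difference of -4.46 (SE 0.53, adjusted p = 0.048, limma) in ICSI BCB- and -3.69 (SE 0.49, adjusted p = 0.085) in mICSI BCB-. Both calls in ICSI BCB- were kept in 1 of 11 omissions, and without ICSI BCB- replicate 1 the adjusted p of each was 0.27. Neither call held once slide entered as a block, at 0.085 for EMPV1_38559 and 0.17 for EMPV1_06422.

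Bounds describe the probes that a whole group lacked. For a probe off on every array of a group, the fold is taken from the mean log2 signal of the other group. That mean is set against the lowest on signal of each off array, or against the probe itself if it was brighter there. The fold is a lower limit for the group means and not for single blastocysts. In this comparison 94 probes (0.215% of the array) were on in all ICSI BCB- and off in all ICSI BCB+ blastocysts, with a median bound of 2.86-fold and a highest of 26.9-fold, and 47 (0.107%) showed the opposite, with a median of 1.52-fold and a highest of 30.8-fold. The bound was at least 2-fold for 62 of the 94 and for 7 of the 47. At equal depth probes of either kind numbered 229 in place of 141. Within slide 2, where 2 blastocysts of each group met, 695 probes were on in both ICSI BCB- and off in both ICSI BCB+ blastocysts and 409 the reverse.

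EMPV1_06629 had the largest bound among probes lacking in ICSI BCB-. Its signals were 973, 648, 202 and 374 in ICSI BCB+, 23.1, 28.9 and 14.2 in ICSI BCB-, and 222, 8.67, 19.3 and 11.9 in mICSI BCB-. All ICSI BCB+ blastocysts and 1 mICSI BCB- blastocyst had it on, and ICSI BCB+ and ICSI BCB- did not overlap. The level in ICSI BCB+ was at least 30.8-fold higher, and the log2 difference of -5.11 (SE 0.97) had an adjusted p of 0.27 in limma.

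With mICSI BCB- set against ICSI BCB+, 5 of the 10834 probes (0.0462%) passed the false discovery rate of 0.05, all higher in mICSI BCB-, against 0.0181% of all probes fitted. At the looser limit 217 (2.0%) did so, against 1.62% of all probes, and 916 had an unadjusted p under 0.05. Of the 217, 120 were higher and 97 lower, where 0.992% and 0.63% of all probes were, and the split was 114 and 103 after 75th percentile scaling and 113 and 49 after spike-in scaling. The median log2 difference was -0.12 over the 10834 and -0.01 over all probes, and it was 0.06 and 0.17 after spike-in scaling. The 5 calls were EMPV1_17627 and 4 probes that were on in all 7 blastocysts from BCB- oocytes and off in all 4 from BCB+ oocytes.

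EMPV1_07318 had signals of 3.19, 3.91, 4.56 and 4.20 in ICSI BCB+, 43.5, 59.2 and 29.4 in ICSI BCB-, and 51.7, 196, 148 and 286 in mICSI BCB-. All 7 blastocysts from BCB- oocytes lay above the 4 from BCB+ oocytes. The log2 difference of mICSI BCB- from ICSI BCB+ was 5.57 (SE 0.64, adjusted p = 0.042, limma), at least 10.01-fold, and that of ICSI BCB- was 2.86 (SE 0.69, adjusted p = 0.35), at least 1.53-fold. EMPV1_17842 had 10.8, 8.08, 4.85 and 4.56 in ICSI BCB+, 249, 55.7 and 82.8 in ICSI BCB-, and 376, 225, 86.0 and 142 in mICSI BCB-. The groups divided in the same way, with 5.23 (SE 0.61, adjusted p = 0.042), at least 12.4-fold, in mICSI BCB- and 3.49 (SE 0.66, adjusted p = 0.27), at least 3.72-fold, in ICSI BCB-. The difference between the 2 BCB- groups was 2.71 (adjusted p = 0.75) for the former probe and 1.74 (adjusted p = 0.75) for the latter.

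The other 2 calls, EMPV1_39189 and EMPV1_41366, lay outside the naming rule and were picked after their values were seen. EMPV1_39189 had 14.6, 14.9, 12.5 and 13.4 in ICSI BCB+, 274, 120 and 28.6 in ICSI BCB-, and 143, 96.8, 217 and 75.6 in mICSI BCB-, at a log2 difference of 3.62 (SE 0.42, adjusted p = 0.042, limma) and at least 8.41-fold in mICSI BCB-. EMPV1_41366 had 8.54, 10.6, 6.64 and 4.98 in ICSI BCB+, 330, 121 and 61.2 in ICSI BCB-, and 51.9, 55.9, 115 and 92.1 in mICSI BCB-, at 3.81 (SE 0.46, adjusted p = 0.045) and at least 5.06-fold. For both, every blastocyst from a BCB- oocyte lay above every one from a BCB+ oocyte. None of the 5 calls was kept with slide as a block, with the replicate number as a block or without mICSI BCB- replicate 2, where the highest adjusted p of each was 0.16. EMPV1_07318 was kept in 3 of the 11 omissions, EMPV1_17842 and EMPV1_39189 in 2 each and EMPV1_41366 in 1. With a floor of 10 the adjusted p was 0.11 for EMPV1_07318 and 0.063 for EMPV1_17842 in limma, and with normexp 0.29 and 0.205.

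Loss was more common than gain in this comparison, and its bounds were low. There were 109 probes (0.249% of the array) on in all ICSI BCB+ and off in all mICSI BCB- blastocysts, with a median bound of 1.07-fold and 9 at 2-fold or above, and 14 (0.032%) of the opposite kind, with a median bound of 7.92-fold and all 14 at 2-fold or above. The dimmest arrays belong to mICSI BCB-, and at equal depth probes of either kind numbered 48 in place of 123. On slide 1, where 2 blastocysts of each group met, 991 probes were on in both ICSI BCB+ and off in both mICSI BCB- blastocysts and 257 the reverse.

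EMPV1_16249 and EMPV1_06716, named by the rule among the 109 probes on in all ICSI BCB+ and off in all mICSI BCB- blastocysts, did not pass in limma. EMPV1_16249 had 257, 783, 22.6 and 3190 in ICSI BCB+, 667, 501 and 14.7 in ICSI BCB-, and 19.85, 4.14, 14.3 and 14.7 in mICSI BCB-. ICSI BCB+ replicate 3 was low and close in signal to the highest mICSI BCB- value. On the normalised log2 scale it stood at 4.39, below mICSI BCB- replicate 4 (4.95) and replicate 1 (4.46), so that the groups overlapped there. The bound was at least 13.9-fold, and the log2 difference was -4.70 (SE 1.504, adjusted p = 0.57, limma). EMPV1_06716 had 190, 58.7, 55.0 and 118 in ICSI BCB+, 7.49, 73.6 and 14.5 in ICSI BCB-, and 5.17, 15.1, 12.9 and 3.73 in mICSI BCB-. ICSI BCB+ and mICSI BCB- did not overlap, at a bound of at least 3.92-fold and a log2 difference of -3.45 (SE 0.80, adjusted p = 0.36).

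With mICSI BCB- set against ICSI BCB-, 2 of the 10834 probes (0.0185%) passed the false discovery rate, both lower in mICSI BCB-, against 0.00603% of all probes fitted. They were EMPV1_40508 and EMPV1_38559, whose signals are given above, and no other probe of the array passed. EMPV1_38559 differed by -3.77 (SE 0.40, adjusted p = 0.045, limma), and ICSI BCB- was at least 2.72-fold higher. Its adjusted p was 0.22 with slide as a block and 0.15 without mICSI BCB- replicate 1, and the call was kept in 1 of 11 omissions. At the looser limit 148 probes (1.37%) passed, against 1.0% of all probes, and 693 had an unadjusted p under 0.05. Of the 148, 56 were higher and 92 lower in mICSI BCB-, where 0.41% and 0.591% of all probes were. The split was 85 and 87 after 75th percentile scaling and 11 and 381 after spike-in scaling. The median log2 difference was -0.10 over the 10834 and 0.09 over all probes, and it was 0.05 and 0.17 after 75th percentile scaling and -1.002 and -0.88 after spike-in scaling.

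Between the blastocysts with and without added mitochondria, whole-group differences in detection were mainly probes off in mICSI BCB-. There were 157 probes (0.359% of the array) on in all ICSI BCB- and off in all mICSI BCB- blastocysts. Their median bound was 1.18-fold, the lowest 0.71-fold and the highest 24.9-fold, and 41 were at 2-fold or above. Only 7 (0.016%) were on in all mICSI BCB- and off in all ICSI BCB- blastocysts, with a median bound of 5.24-fold and 6 at 2-fold or above. The brightest arrays belong to ICSI BCB- and the dimmest to mICSI BCB-. At equal depth probes of either kind numbered 98 in place of 164, a count not split by direction. The part of brightness in the loss was not tested separately from the treatment. On slide 3, 1367 probes were on in the single ICSI BCB- and off in both mICSI BCB- blastocysts and 338 the reverse.

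Of those 7, EMPV1_06740 and EMPV1_07907 had the largest bounds. EMPV1_06740 had 128, 1824, 13.0 and 14.1 in ICSI BCB+, 13.3, 9.45 and 11.9 in ICSI BCB-, and 1382, 136, 80.3 and 813 in mICSI BCB-. All 4 mICSI BCB- blastocysts lay above the 3 ICSI BCB- ones, and their mean was at least 26.8-fold above the detection level of ICSI BCB-. The log2 difference was 5.71 (SE 1.75, adjusted p = 0.75, limma). The 2 ICSI BCB+ blastocysts in which it was on were those of slide 1. EMPV1_07907 had 8.56, 4.23, 193 and 6.65 in ICSI BCB+, 6.18, 28.9 and 6.26 in ICSI BCB-, and 41.6, 78.2, 178 and 113 in mICSI BCB-. The 2 BCB- groups did not overlap, although mICSI BCB- replicate 1 (41.6) lay close to ICSI BCB- replicate 2 (28.9). The mean of mICSI BCB- was at least 7.00-fold above the detection level of ICSI BCB-. The log2 difference was 3.90 (SE 1.21, adjusted p = 0.75, limma).

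Over the 3 groups at once, 3 of the 10834 probes (0.0277%) passed the false discovery rate in the F test of limma, against 0.00905% of all probes fitted, and all 3 calls of the array were among them. They were EMPV1_40508 (adjusted p = 0.00013), EMPV1_17627 (0.044) and EMPV1_38559 (0.045). At the looser limit 230 probes (2.12%) passed, against 1.81% of all probes. The count was 24 without ICSI BCB- replicate 3 and 12 without mICSI BCB- replicate 3, and between 1 and 6 without any other array. ICSI BCB- replicate 3 moved the pairwise counts of ICSI BCB- as well. Without it 23 probes passed against ICSI BCB+ and 18 against mICSI BCB-, where without any other array 1 to 3 and 1 to 5 passed.

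Probes that followed a slide exactly are shown by the one with the largest bound on each slide. EMPV1_11492 had 605, 1348, 4.73 and 8.20 in ICSI BCB+, 6.43, 6.26 and 3.59 in ICSI BCB-, and 472, 52.5, 4.43 and 11.7 in mICSI BCB-. It was on in the 4 arrays of slide 1 and no other. Their mean was at least 23.2-fold above the detection level of the rest, close to the 23.3-fold of EMPV1_40508 by the same measure. EMPV1_06689 had 3.60, 7.62, 73.4 and 32.8 in ICSI BCB+, 336, 696 and 3.85 in ICSI BCB-, and 4.87, 4.57, 7.13 and 4.18 in mICSI BCB-. Only slide 2 had it on, with a mean at least 5.17-fold above the detection level of the other arrays.

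EMPV1_16681 had 3.37, 13.1, 4.60 and 14.1 in ICSI BCB+, 25.4, 15.7 and 241 in ICSI BCB-, and 4.44, 4.30, 29.8 and 161 in mICSI BCB-. Slide 3 alone had it on, with a mean at least 6.69-fold above the detection level of the other arrays. Among single arrays mICSI BCB- replicate 3 (29.8) lay close to ICSI BCB- replicate 1 (25.4), which was off. For each of the 3 the exact p of detection by slide was 0.00606, the lowest possible, as was that by group for EMPV1_40508, EMPV1_38559, EMPV1_07318 and EMPV1_17842. All these values were 1.0 after Benjamini-Hochberg adjustment, which no single probe could pass on its own.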

How the data were processed

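Expression was measured with 11 Agilent 1-colour arrays, 1 blastocyst each. RNA was amplified in 2 rounds by the authors, with spike-in RNA added before extraction, and arrays were read with Feature Extraction 11.0.1.1. The authors deposited, per spot, a processed signal as an intensity (background subtracted, with no scaling between arrays), median spot and background intensities, and flags, used here as a score of 0 or 1. Control spots and 42 flagged probes of 43795 were left out. The number of arrays limits the precision.

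Signals were quantile normalised, floored at 1 and converted to log2. The 33149 probes that reached the 20th percentile of the array with the flag set on 3 or more arrays were fitted with limma 3.58.1 in R 4.3.3, 1 mean per group, all 3 groups sharing 1 variance, with Benjamini-Hochberg adjustment over all. Detection was compared over 43753 probes with exact tests (Python 3.11.15, scipy 1.17.1, numpy 2.4.6, pandas 2.3.3), and scripts were tested on simulated data. Slides were taken from the array barcodes. Replicate numbers did not pair samples: over 10 same-numbered pairs, deviations correlated between -0.083 and 0.081.

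Members, lists, tests and the naming rule were chosen with earlier results of these data known. Per comparison, the rule names up to 2 higher and 2 lower members, those past the false discovery rate by size of change and then by bound, with the largest bounds per slide and among probes on in 10 and in 3 arrays. Alternatives were 75th percentile and spike-in scaling (8 of 10 spike-in sequences), normexp (offset 50) on median intensities, no filter on dim probes or detection on all arrays of a group, a floor of 10, flagged probes kept, another detection flag, equal depth, a 5th percentile detection level, the methods' t-test (ANOVA over 3 groups), slide and replicate blocks, 2 groups only, 1 slide only, and each array left out.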

Additional observations from a re-analysis of the deposited data

Results flagged for a closer look

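In the 2 groups of 4 blastocysts, each of the 18 probes that the naming rule gave and 4 summaries per array were searched for a blastocyst far from the other 3, a gap of more than 0.829 of the range of the group. Of 44 such searches 5 found one. Chance finds about 1 in 20 only where probes are not picked on the same data. The naming rule used these data, and EMPV1_40216 and EMPV1_34975 were named for their wide gaps. The count can therefore not be set against chance. EMPV1_40216 stood at 2.74 on the log2 scale in ICSI BCB+ replicate 4, where the highest of the group was 14.75. EMPV1_34975 stood at 14.51 in ICSI BCB+ replicate 1, where the lowest was 2.56, and at 2.13 in mICSI BCB- replicate 4, where all 4 blastocysts were off and spanned 2.08 to 2.13. EMPV1_40508 stood at 2.61 in mICSI BCB- replicate 4 against a lowest of 2.27, again with all 4 off, which leaves its on or off state as given. EMPV1_17842 stood at 6.33 in mICSI BCB- replicate 3, below a highest of 8.70, and remained above every ICSI BCB+ blastocyst.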

How the results depend on the processing

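Over all alternatives, no named probe past the false discovery rate changed direction, and the counts of members and of probes differing in detection by group or slide stayed within 1.5 times with flagged probes kept, with another detection flag and at equal depth. Following brightness by the spike-in signal left 416 probes. Counts at a false discovery rate of 0.05 are small and moved with most settings, and apart from the settings named beside them the cause was not tested. For ICSI BCB- against ICSI BCB+ (4 probes) they were 1 with 75th percentile scaling, spike-in scaling, normexp, no filter on dim probes or slide as a block, and 0 within the shared slide (1546 with unadjusted p under 0.05 in limma). For mICSI BCB- against ICSI BCB+ (5) they were 3 with 75th percentile scaling, 2 with the methods' t-test, 1 with spike-in scaling or a floor of 10, and 0 with normexp (612 under 0.05), no filter (926), slide as a block (743) or within the slide (1140). A count need not hold the same probes. In that t-test 1 of the 2 was higher, and EMPV1_17627, EMPV1_07318 and EMPV1_17842 had adjusted p of 0.17, 0.30 and 0.285. For ICSI BCB- against ICSI BCB+ the t-test called 3 probes. There EMPV1_40508 had an adjusted p of 0.066, and EMPV1_17627, EMPV1_06422 and EMPV1_38559 had 0.198. For mICSI BCB- against ICSI BCB- (2) they were 1 with 75th percentile scaling, normexp, no filter, a floor of 10 or slide as a block, and 0 with the t-test (509) or within the slide (870). For the F test (3) they were 9 with detection on all arrays of a group, which fits fewer probes, and 1 with ANOVA or slide as a block.

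With the replicate number as a block the 3 pairwise counts were 2, 0 (978 under 0.05 in limma) and 1, and the numbers did not pair the samples. The looser counts were 222, 270, 167 and, for the F test, 244 under this block.

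At the looser limit, spike-in scaling gave 622 and 392 for the comparisons that hold ICSI BCB-, in the order above, and 429 for the F test. Normexp gave 116, 134, 73 and 135 for the 3 pairs and the F test. The t-test gave 108 and 90 for mICSI BCB- against ICSI BCB+ and ICSI BCB-, and ANOVA 139. Fits within the shared slide gave 548, 441 and 226. Probes split between whole groups numbered 229, 48 and 98 at equal depth, and 104 with the other flag for mICSI BCB- against ICSI BCB-. Bounds of at least 5-fold (32, 30 and 23 probes) numbered 81 and 52 with spike-in scaling for the comparisons with ICSI BCB-, and 17, 17 and 10 with the 5th percentile as the detection level.

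With each array left out in turn, members ranged from 9428 to 10405, detection by group from 143 to 455, by slide from 123 to 426 and by brightness from 332 to 902. Calls at the false discovery rate ranged from 1 to 23, 0 to 8, 1 to 18 and, for the F test, 1 to 24, and looser calls from 181 to 276, 203 to 260, 128 to 220 and 192 to 296. Whole-group splits ranged from 141 to 329, 123 to 293 and 164 to 438, and bounds of at least 5-fold from 32 to 83, 30 to 62 and 23 to 75. The count of 0, for mICSI BCB- against ICSI BCB+, was found without ICSI BCB- replicate 2 (874 under 0.05 in limma) and without mICSI BCB- replicate 2 (901 under 0.05 in limma). A smaller group makes a whole-group split easier to meet.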
